A study of Homo sapiens with 4 samples.

Results

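DHRS2 and 9 other genes named DHRS (dehydrogenase/reductase) were followed in nascent RNA after acute depletion of KAP1. The members are the rows whose identifiers carry the symbols DHRS2, DHRS4, DHRS4L2, DHRS1, DHRS3, DHRS7, DHRS9, DHRS11, DHRS12 and DHRS13, 10 of the 19901 counted genes. DHRS2 had the lowest log2 fold change with dTAG among the 12612 tested genes. That value chose it, so its change is given as a description without a test. The relatives were chosen by name, though with earlier results of these data known. TT-Seq sequences the RNA made during a short pulse of the nucleoside 4sU, here 500 μM for 10 min. Libraries came from HCT116, a human colon cancer cell line, in 1 clone (KAP1_dTAG_CloneD5) whose KAP1 protein carries a tag that dTAG directs to degradation. Both groups carry this tag, grew in serum and were treated for 8 h, the control group with the vehicle DMSO and the other with dTAG, with 2 libraries each. The study's methods call these biological replicates, and nothing states that they were separate cultures, so p-values measure the spread between these libraries.

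The DHRS enzymes belong to the short-chain dehydrogenases/reductases (SDRs), a large superfamily of oxidoreductases that use NAD(H) or NADP(H) to convert alcohols and carbonyls into each other. Their substrates include retinoids, steroids, prostaglandins, sugars and foreign carbonyl compounds, and several members act in the making or removal of retinoic acid, which guides differentiation of the intestinal epithelium. DHRS2, also called HEP27, reduces dicarbonyl compounds and has been linked to the p53 pathway through MDM2. DHRS4 is a peroxisomal retinal reductase, and DHRS4L2 is a nearby duplicate of it.

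Gene counts were between 93105627 and 102314741 per library, and a gene was tested where all 4 libraries had at least 50 counts. All 6 epithelial markers examined, such as EPCAM and KRT8, passed this minimum. Of 7 markers of blood, endothelial and stromal cells, COL1A1 passed it, COL1A2 and LUM had 0 counts in every library, and PTPRC had at most 1. TRIM28, the gene for KAP1, stood at 61.6 and 69.7 CPM with DMSO and at 53.5 and 47.9 CPM with dTAG. CPM is the depth-scaled count after TMM normalization. The log2 fold change of TRIM28 was -0.37 (edgeR adjusted p = 0.0189), under the threshold of 0.05, as for 7.1% of tested genes. dTAG acts on the protein, so this RNA does not check the labels. The median of all log2 fold changes was -0.015, with -0.45 at the 5th percentile and 0.30 at the 95th.

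Of the members, 5 lie on chromosome 14 (hg38). DHRS2 (ENSG00000100867.14) spans chr14:23630114-23645639 on the plus strand, as the count table gives it. DHRS4 (ENSG00000157326.18) is the next counted gene after it, at chr14:23953585-23969279 on the plus strand. DHRS4L2 (ENSG00000187630.16) follows directly at chr14:23969873-24006408 on the same strand. DHRS1 (ENSG00000157379.13) lies at chr14:24290597-24299833 on the minus strand, and DHRS7 (ENSG00000100612.13) lies far from them at chr14:60144119-60169856 on the minus strand. Counts cover each gene from end to end, introns included, and GENCODE 44 exons make up 48.5% of the DHRS2 interval, 13.7% of DHRS4 and 6.77% of DHRS4L2.

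The sequence before the start site of DHRS2 differed in composition from those of most relatives. RefSeq windows (GRCh38.p14) of 250 bases before a start were available for 9 members, 19 windows in all, and are shown for DHRS2, for DHRS3, the relative with the highest level, and for DHRS13, the relative with the lowest log2 fold change. Each runs 5′ to 3′ and ends at the base before the start, with CG dinucleotides and TATAAA in capitals. The DHRS2 window is chr14:23629865-23630114 on the plus strand, the first of 3 DHRS3 windows is chr1:12618211-12618460 on the minus strand, before the counted interval, and the DHRS13 window is chr17:28903080-28903329 on the minus strand.
DHRS2: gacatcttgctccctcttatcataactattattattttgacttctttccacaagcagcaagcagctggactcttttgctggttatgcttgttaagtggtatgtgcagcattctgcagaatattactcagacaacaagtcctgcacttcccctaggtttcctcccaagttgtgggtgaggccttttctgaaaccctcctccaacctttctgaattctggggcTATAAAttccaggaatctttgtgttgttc
DHRS3: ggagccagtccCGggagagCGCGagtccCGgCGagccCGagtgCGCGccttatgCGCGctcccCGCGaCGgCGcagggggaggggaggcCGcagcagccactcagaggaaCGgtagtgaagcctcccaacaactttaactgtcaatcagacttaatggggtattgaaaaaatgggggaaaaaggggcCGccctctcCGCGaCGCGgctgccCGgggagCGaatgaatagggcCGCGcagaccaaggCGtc
DHRS13: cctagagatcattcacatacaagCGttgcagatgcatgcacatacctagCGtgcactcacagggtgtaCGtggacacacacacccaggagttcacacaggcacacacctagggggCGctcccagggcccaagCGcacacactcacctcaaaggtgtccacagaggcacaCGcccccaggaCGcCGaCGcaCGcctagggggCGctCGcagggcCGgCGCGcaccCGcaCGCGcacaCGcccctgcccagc

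The DHRS2 window held 0 CG dinucleotides, as did 6.06% of the 35116 human windows of this length, whose median was 11. The DHRS3 window shown held 26 and the other DHRS3 windows 10 and 3, while the DHRS13 window held 19. The G and C content of the DHRS2 window was 43.2%, against a median of 58.0% over all windows, 65.2%, 58.8% and 54.8% in the 3 DHRS3 windows and 65.2% in the DHRS13 window. The DHRS2 window also held TATAAA, the core of a TATA box, with its first base 29 bases before the start. On the sense strand, 2.30% of all windows had TATAAA beginning between 20 and 40 bases before the start, and 10.7% had it anywhere on either strand. Among the members, 1 window of DHRS9 was like that of DHRS2, with 0 CG dinucleotides and TATAAA in the same range. The other DHRS9 windows held 2, 1 and 0 CG dinucleotides, at a G and C content of 35.2%, 29.6% and 36.4%. Those with 2 and 1 held TATAAA on either strand, but not in that range. The single DHRS4 window had 19 CG dinucleotides, and the most similar of the 3 DHRS4L2 windows was identical to it at 78.0% of aligned positions. Aligned in the same way, the DHRS2 and DHRS4 windows were identical at 46.2%, below the 49.0% and 54.5% of DHRS4 with the DHRS1 windows.

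DHRS2 was transcribed at a low level that was lower again with dTAG. The DMSO libraries held 483 and 635 counts for it, and the dTAG libraries 196 and 163. Scaled to library size, these were 4.87 and 6.36 CPM with DMSO and 1.96 and 1.81 CPM with dTAG. Both dTAG libraries thus lay below both DMSO libraries, and each was between 28.4% and 40.1% of each DMSO library. The group means were 5.62 ± 1.05 CPM (SD, n = 2) and 1.88 ± 0.107 CPM (SD, n = 2). On the log2 scale this was a fold change of -1.58 (SE 0.20), so that the DMSO level was 2.98 times the dTAG level. TT-Seq of bulk cells does not tell fewer transcribing cells from less RNA made per cell. The genes just outside, next lowest in this contrast, were ETV7 at -1.48, ACSBG1 at -1.37 and ATOH8 at -1.29. The 2 DMSO libraries differed from each other more for DHRS2 than for 92.6% of the tested genes. Exact Poisson intervals (95%) for the counts, which cover counting error alone, ran from 441 to 528 and from 587 to 686 with DMSO. Without DMSO replicate 2, the higher of them, the log2 fold change of DHRS2 was -1.37. It was the lowest of the tested genes there too, but the libraries left in that fit are among those that chose it.

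**Figure D1:**
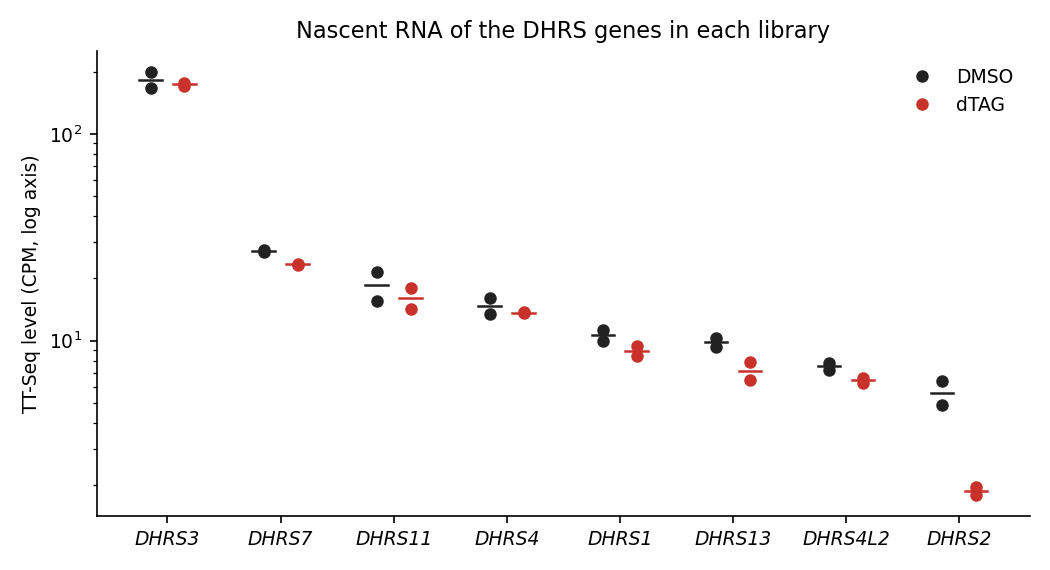
Level of the 8 tested DHRS genes in each library (CPM, log axis), with points for single libraries and bars for the mean of 2. The dTAG libraries of DHRS2, chosen by its fall, sit at 1.96 and 1.81 CPM and its DMSO libraries at 4.87 and 6.36. The other genes differ less between groups.

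The 9 relatives were measured in the same libraries, and 7 of them passed the count minimum. With edgeR's quasi-likelihood test and Benjamini-Hochberg adjustment over all tested genes, 0 of the 7 were called at an adjusted p under 0.05, where 7.1% of all tested genes were called, 3.66% as lower and 3.44% as higher. At an unadjusted p under 0.05 there were 2, DHRS7 and DHRS13, where 26.6% of all tested genes were. DESeq2 called 1, DHRS13, where it called 9.74% of all tested genes. All 7 log2 fold changes were below 0, from -0.45 to -0.076 with a median of -0.21, where 52.3% of the tested genes were below 0, but above 0 with library sizes set to the totals of the ERCC spike-in RNAs. In DHRS4L2, DHRS1, DHRS7 and DHRS13, both dTAG libraries lay below both DMSO libraries. These are 4 of the 7, a larger share than the 30.7% of the tested genes. Without DMSO replicate 1, 5 of the 7 were called lower (DHRS1, DHRS3, DHRS7, DHRS11 and DHRS13), but in that fit 43.4% of all tested genes were called, 21.3% as lower, and the lone DMSO library is assumed to vary like the dTAG libraries. Without any other single library, 0 were called.

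**Figure D2:**
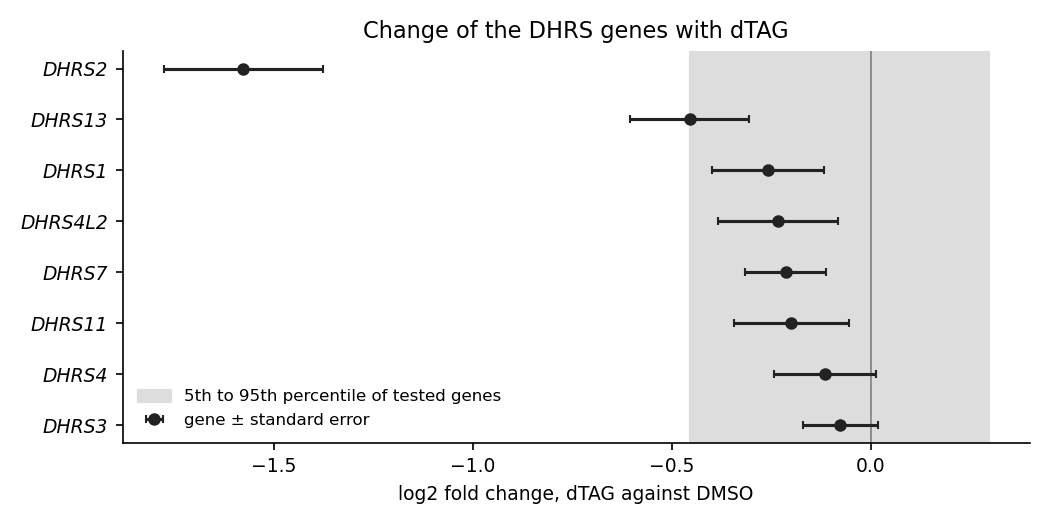
Log2 fold change (dTAG against DMSO) of the 8 tested DHRS genes, with bars for the standard error and a grey band from the 5th to the 95th percentile of tested genes (-0.45 to 0.30). DHRS2, chosen by this value, lies far outside the band at -1.58, DHRS13 at its lower edge and the 6 others within it.

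DHRS13 (ENSG00000167536.13, chr17:28897780-28903071, minus strand), a family member with little known of its substrate, came closest to a call. It stood at 9.32 and 10.3 CPM with DMSO and at 7.88 and 6.45 CPM with dTAG. The groups did not overlap, at a log2 fold change of -0.45 (SE 0.15), which narrowly missed the threshold (edgeR adjusted p = 0.0665). It passed with DESeq2 (adjusted p = 0.0462, 9.74% of all genes called) and with upper-quartile normalization (edgeR adjusted p = 0.0444, 8.91%). It also passed with the likelihood ratio test (0.0274, 12.6%) and no count minimum (0.0258, 8.12%). A replicate block of crossed numbers, chosen after seeing the data, gave an edgeR adjusted p of 0.00332, with 25.3% of all genes called. Without DMSO replicate 1, its log2 fold change was -0.53. With the trends on GC content and gene length removed, the log2 fold change was -0.17 (edgeR adjusted p = 0.296). Over all alternatives its adjusted p from edgeR or DESeq2 ranged from 0.00156 to 0.946.

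DHRS4, the neighbor of DHRS2, did not pass the test. It stood at 13.4 and 16.1 CPM with DMSO and at 13.8 and 13.6 CPM with dTAG, so that both dTAG libraries lay between the DMSO libraries. Its log2 fold change was -0.12 (95% interval -0.38 to 0.15, edgeR adjusted p = 0.58). DHRS4L2 stood at 7.26 and 7.84 CPM with DMSO and at 6.25 and 6.61 CPM with dTAG. The groups were apart, but the log2 fold change of -0.23 (95% interval -0.55 to 0.082) did not pass the test (edgeR adjusted p = 0.33). Some reads from these paralogs may fit both genes. Of the 50-base stretches in DHRS4, 51.9% also occur in DHRS4L2, and 22.2% of those in DHRS4L2 occur in DHRS4. The libraries were sequenced as pairs of 50-base reads, and a pair can be placed by either of its reads. The share of pairs that could not be placed was not measured, so both counts are uncertain to an unknown degree. No 50-base stretch of DHRS2 occurs in another chromosome 14 member, and 0.976% of them occur more than once on the chromosome.

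DHRS1, an enzyme of the endoplasmic reticulum that reduces steroids and foreign carbonyls, stood at 10.0 and 11.3 CPM with DMSO and at 9.41 and 8.42 CPM with dTAG. Its groups were apart, with a log2 fold change of -0.26 (95% interval -0.55 to 0.034, edgeR adjusted p = 0.243). DHRS7, which reduces steroids and retinoids, stood at 26.8 and 27.6 CPM with DMSO and at 23.6 and 23.3 CPM with dTAG. This was a small, evenly repeated difference, with a log2 fold change of -0.21 (standard error 0.10, edgeR adjusted p = 0.188). With each library's trend on GC content and gene length removed, DHRS7 was called at -0.23 (edgeR adjusted p = 0.029), where 22.6% of all tested genes were called. The opposite-strand gene PCNX4 covers 97.2% of the DHRS7 interval, and the study's methods give no strand setting for the counting.

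DHRS3, a retinal reductase known to rise with retinoic acid, had the highest level of the members (ENSG00000162496.8, chr1:12567909-12617731, minus strand). It stood at 166 and 199 CPM with DMSO and at 176 and 170 CPM with dTAG. Both dTAG libraries lay between the DMSO libraries, with a log2 fold change of -0.076 (95% interval -0.27 to 0.12, edgeR adjusted p = 0.627). DHRS11 (ENSG00000278535.4, chr17:36591797-36600806, plus strand), a cytosolic reductase of steroids and dicarbonyls, stood at 15.6 and 21.4 CPM with DMSO and at 18.0 and 14.2 CPM with dTAG. Its groups overlapped widely, with a log2 fold change of -0.20 (95% interval -0.50 to 0.10, edgeR adjusted p = 0.381). In DHRS4, DHRS3 and DHRS11 the sign depends on 1 library, since without DMSO replicate 2 the values were 0.022, 0.060 and 0.045.

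The remaining pair of members did not reach the count minimum. DHRS9 (ENSG00000073737.16, chr2:169064788-169096167, plus strand), a retinol dehydrogenase, had 5 and 8 counts with DMSO and 11 and 8 with dTAG. At this depth a difference was not detectable, and with no count minimum its log2 fold change was 0.60 (SE 1.03, edgeR adjusted p = 0.773). DHRS12 (ENSG00000102796.10, chr13:51767992-51804157, minus strand) had 0 counts in every library. Its whole interval lies within ENSG00000285444 on the same strand. Of the 488 genes whose whole interval is shared with a counted gene on the same strand, 97.1% had 0 counts throughout and 0 passed the minimum, so a count of 0 there does not measure transcription. Among 581 genes lying wholly under an opposite-strand gene, as most of DHRS7 does, 19.3% had 0 counts throughout and 41.1% passed the minimum.

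Per kilobase of gene, a scale for comparing genes, the DMSO levels had an order that repeated sequence leaves uncertain for DHRS4 and DHRS4L2. DHRS3 was highest at 3.67 ± 0.471 CPM per kilobase (SD, n = 2), followed by DHRS11 at 2.06 ± 0.453 and DHRS13 at 1.86 ± 0.134, whose libraries overlapped with those of DHRS11. DHRS1 was at 1.15 ± 0.0995, DHRS7 at 1.06 ± 0.0219 and DHRS4 at 0.942 ± 0.122 CPM per kilobase. DHRS2 followed at 0.362 ± 0.0677 CPM per kilobase and DHRS4L2 was lowest at 0.207 ± 0.0114. The libraries of the neighbors in this order lay apart except for DHRS11 and DHRS13, although with 2 libraries each this is a description. The lower DHRS1 library, at 1.08, was just above the higher DHRS7 library, at 1.07. With dTAG, DHRS2 and DHRS4L2 exchanged places and the other ranks stayed as they were. Of the 50-base stretches in DHRS4 and DHRS4L2, 56.7% and 49.4% occur more than once on chromosome 14, against 0.976% in DHRS2. These shares do not take the pairing of reads into account, so the places of DHRS4 and DHRS4L2 are uncertain to an unknown degree. On the same scale DHRS2 ranked at percentile 24.4 of tested genes with DMSO and 12.9 with dTAG.

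The surroundings of DHRS2 on chromosome 14 were examined next. Within 1 megabase lie 84 other counted genes, 3 of them members, and 50 passed the count minimum. The nearest counted gene before DHRS2 was JPH4, which joins membranes in excitable cells, 51.3 kilobases away, with 4 and 10 counts with DMSO and 11 and 6 with dTAG, too few to test. The nearest after it was DHRS4, 308 kilobases away. Of the 50 tested neighbors, 1 was called higher and 1 lower with dTAG, 4.0% against the background of 7.1%. PCK2, the mitochondrial phosphoenolpyruvate carboxykinase, rose from 31.2 and 35.6 CPM to 43.4 and 46.0 CPM, a log2 fold change of 0.42 (edgeR adjusted p = 0.0138). LRP10, a receptor of the low-density lipoprotein receptor family, fell from 26.4 and 25.4 CPM to 20.9 and 19.0 CPM, a log2 fold change of -0.38 (edgeR adjusted p = 0.0393). The log2 fold changes of the 50 ran from -0.69 to 0.42, with a median of -0.19. All lay above that of DHRS2, which its choice as the lowest tested gene fixed in advance. Across all tested genes, log2 fold change and GC content had a Spearman's rho of -0.56. With the trends on GC content and gene length removed, 3 neighbors were called higher and 1 lower, where 18.8% and 3.81% of all tested genes were. A role of GC content in the neighbors' values was not tested. Of the 50, 42 were below 0, where 52.3% of all tested genes were (1 of the 49 with a symbol with the ERCC totals). In 30 of the 50, both dTAG libraries lay below both DMSO libraries, a larger share than the 30.7% of all tested genes. Without DMSO replicate 1, 19 were called lower, where 21.3% of all tested genes were, and 1 higher, and without dTAG replicate 1 or dTAG replicate 2, 0 were called.

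**Figure D3:**
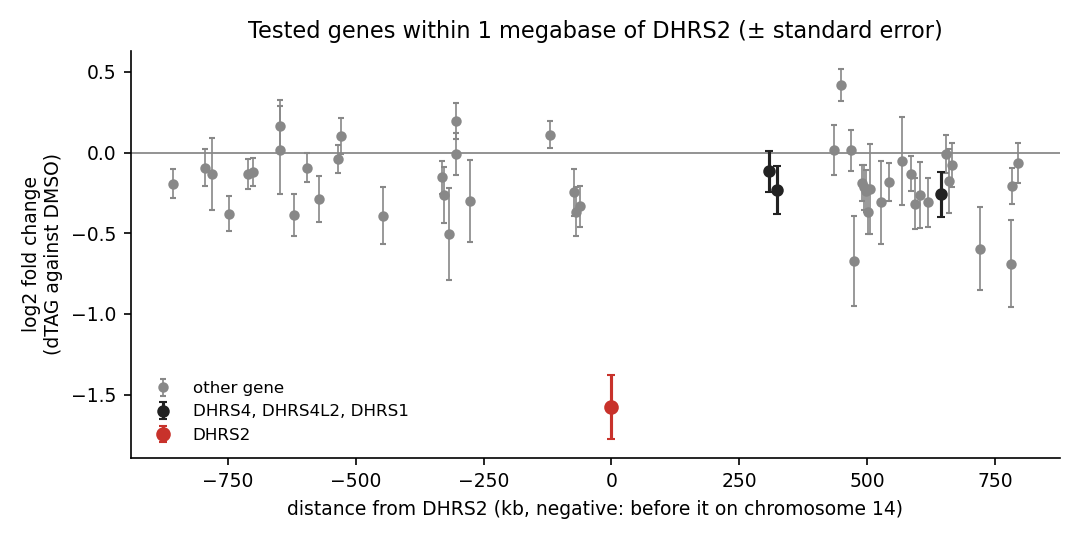
Log2 fold change (dTAG against DMSO) with standard error for the 50 tested genes within 1 megabase of DHRS2, against distance from DHRS2 in kilobases. DHRS2, chosen as the lowest of all tested genes, is at -1.58. The other genes, DHRS4, DHRS4L2 and DHRS1 among them, lie between -0.69 and 0.42.

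Beyond the DHRS names, 63 other SDR genes were listed, of which 62 were counted and 46 tested. Called genes were 5 higher and 2 lower with dTAG, 15.2% against the background of 7.1%, and the median log2 fold change was -0.031. GMDS, which makes the precursor of GDP-fucose, rose from 120 and 102 CPM to 144 and 166 CPM, a log2 fold change of 0.48. KDSR, a reductase of sphingolipid synthesis, rose by 0.39, HSD17B12, a reductase of fatty acid elongation, by 0.39, and the fatty acyl-CoA reductases FAR2 and FAR1 by 0.37 and 0.34. DCXR, a reductase of dicarbonyls and xylulose, fell from 36.2 and 35.0 CPM to 26.0 and 25.9 CPM, a log2 fold change of -0.45. SPR, sepiapterin reductase of tetrahydrobiopterin synthesis, had a log2 fold change of -0.35. Adjusted p-values of these 7 genes from edgeR's quasi-likelihood test were between 0.00418 and 0.047. The GC content of the gene was between 36.0% and 42.3% for the 5 that rose, 62.0% for DCXR and 54.8% for SPR, and across the 12612 tested genes, which share the 4 libraries, log2 fold change and GC content had a Spearman's rho of -0.56. With the trends on GC content and length removed, 10 were called higher and 4 lower, where 18.8% and 3.81% of all tested genes were. Over all genes, 11.8% were called without DMSO replicate 2, 1.09% without dTAG replicate 1 and 0.535% without dTAG replicate 2. Without each library in turn, in the order DMSO replicates 1 and 2 and dTAG replicates 1 and 2, 8, 6, 1 and 0 were called higher and 9, 6, 0 and 0 lower.

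The retinoid pathway list held 30 genes for the transport, oxidation, storage and sensing of retinoids, 8 of them also in the SDR list. Of 21 tested, 0 were called higher, 3 were called lower, together 14.3% against 7.1% of all tested genes, and 6 had an unadjusted p under 0.05 by edgeR, as did 26.6% of all tested genes. CYP26B1, a cytochrome P450 that degrades retinoic acid, fell from 14.4 and 17.7 CPM to 12.2 and 9.77 CPM, a log2 fold change of -0.55 (edgeR adjusted p = 0.0226). DGAT1, which makes triglycerides and also esterifies retinol, fell from 12.4 and 14.6 CPM to 10.1 and 8.75 CPM, a log2 fold change of -0.52 (edgeR adjusted p = 0.0277). CRABP2, a retinoic acid carrier, fell from 63.5 and 62.0 CPM to 53.0 and 47.9 CPM, a log2 fold change of -0.31 (edgeR adjusted p = 0.0359). The median of the list was -0.094. The GC content of these 3 genes was between 55.4% and 63.0%, and with the trends on GC content and length removed, 0 were called lower and 3 higher, where 3.81% and 18.8% of all tested genes were. Called lower were 7 without DMSO replicate 1, 3 without DMSO replicate 2, 1 without dTAG replicate 1 and 0 without dTAG replicate 2. Of all tested genes, 21.3%, 5.44%, 0.569% and 0.157% were called lower in these fits. DESeq2 called 4 lower and 0 higher, where 4.43% and 5.31% of all tested genes were.

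The aldo-keto reductases, a separate enzyme superfamily that reduces many of the same carbonyl substrates, were compared as an unrelated family. Of 12 listed, 7 passed the count minimum, and 0 were called by edgeR or by DESeq2, with 2 at an unadjusted p under 0.05 by edgeR, where 26.6% of all tested genes were. Their log2 fold changes were all below 0 (above 0 with the ERCC totals), from -0.44 to -0.092 with a median of -0.25. In 5 of the 7, both dTAG libraries lay below both DMSO libraries, a larger share than the 30.7% of all tested genes. Without DMSO replicate 1, 4 were called lower, where 21.3% of all tested genes were, and without any other single library 0 were.

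**Figure D4:**
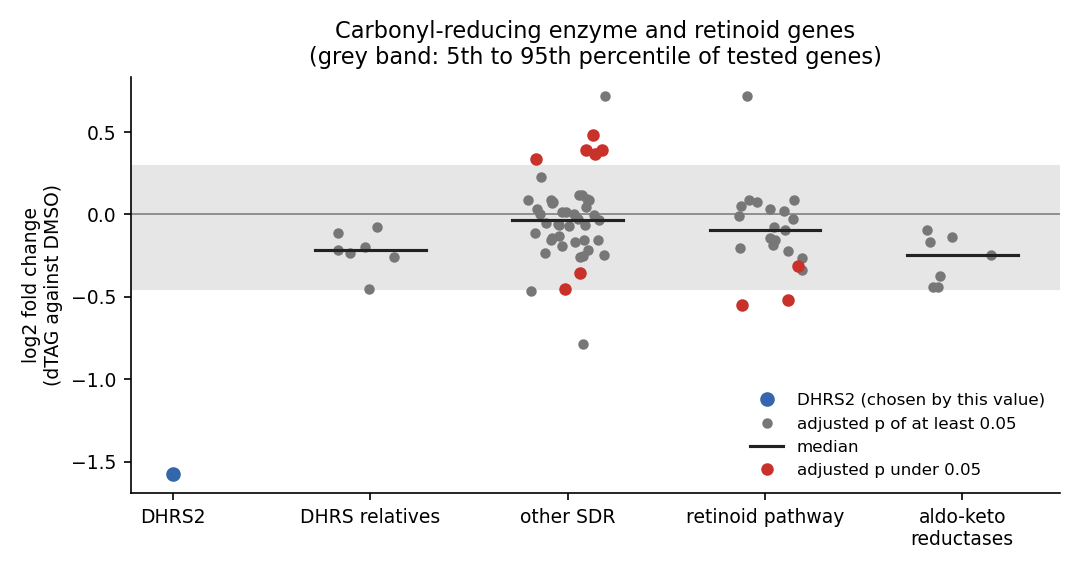
Log2 fold change (dTAG against DMSO) of DHRS2 and of the tested genes of each list, with a bar at the list's median and red points for genes called at an adjusted p under 0.05. Medians on the TMM scale are -0.21 for DHRS relatives, -0.031 for other SDR genes, -0.094 for retinoid genes and -0.25 for aldo-keto reductases. DHRS2, at -1.58, was chosen as the lowest of all tested genes, so every list gene lies above it by that choice.

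The tested genes whose pattern over the 4 libraries was most like that of DHRS2 were ETV7, ATOH8, SAMD11, GPR15 and ACSBG1, by Euclidean distance between centered log2 CPM values. This distance includes the fall with dTAG that chose DHRS2, so genes with large falls come out near it. ETV7, ACSBG1 and ATOH8 were also the next lowest in this contrast, and the likeness is a description. ETV7, a transcription factor of the ETS family on chromosome 6, was nearest at a distance of 0.232, where the median over tested genes was 1.59. Its levels were 6.29 and 8.83 CPM with DMSO and 2.56 and 2.86 CPM with dTAG. ATOH8, a basic helix-loop-helix factor, followed at 0.410 with 3.65 and 4.75 CPM with DMSO and 2.05 and 1.38 CPM with dTAG. SAMD11, GPR15 and ACSBG1 were at distances of 0.498, 0.501 and 0.528. None of the 5 belongs to the lists above, and none lies on chromosome 14.

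The DHRS2 value was recomputed under other scalings, filters, tests and sets of libraries. Over 14 alternatives its log2 fold change ran from -1.76 to -0.89, and it was the lowest of the tested genes in 10 of them. These alternatives use the libraries that chose DHRS2, so its rank in them is a description and no independent support. With library sizes set to the ERCC spike-in totals, the median of all tested genes moved to 0.63 and DHRS2 stood at -0.89, or -1.52 relative to that median. With 1 ERCC factor as a covariate, DHRS2 stood at -1.24 and ranked 6 from the bottom. Its rank was 3 at a minimum of 10 counts and without dTAG replicate 2, and 776 with no count minimum, where genes with few counts were included. Under the ERCC totals all 7 relatives and all 7 aldo-keto reductases had log2 fold changes above 0 and below the median of all genes. The 12 list genes called above were likewise all above 0. Each lay on the same side of that median as before, the 6 called higher above it and the 6 called lower below it. This scaling moves all genes by nearly the same amount, so these sides were nearly fixed in advance. With this scaling 0 of all tested genes (0.0%) were called by edgeR, with 229 at an unadjusted p under 0.05.

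**Figure D5:**
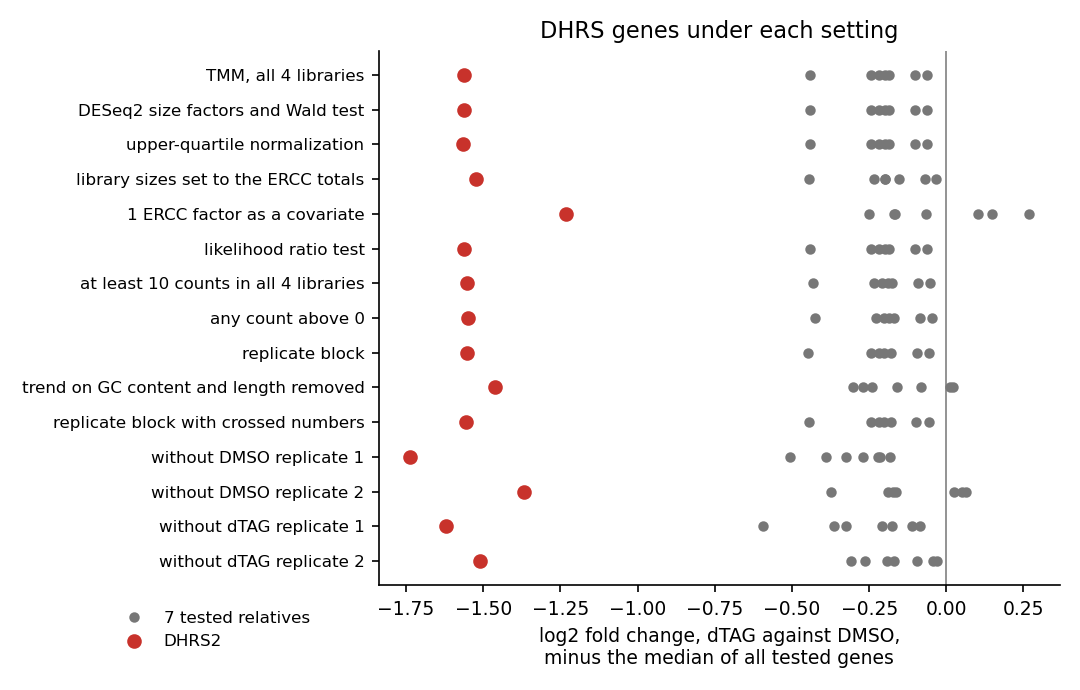
Log2 fold change (dTAG against DMSO) of DHRS2 (red) and the 7 tested relatives (grey) under each setting, minus the median of all tested genes under that setting. DHRS2 lies below all 7 relatives in each of the settings drawn. All settings use libraries that chose DHRS2 as the lowest, so this order is a description.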

How the data were processed

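TT-Seq was done in HCT116 cells with tagged KAP1, treated with DMSO or dTAG, in 2 libraries per group. Per the methods, the authors ran Trim Galore 0.6.4 on paired-end 50-base reads and STAR against hg38. They counted with featureCounts (Subread 1.6.3) over whole protein-coding genes and the ERCC spike-ins. The deposited values are raw counts for 19901 genes and 92 ERCC RNAs. File starts are mostly 1 below those of GENCODE 44, in 60.9% of genes with the same end, and are printed as given.

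The 12612 genes that reached 50 counts in every library were scaled by TMM (factors 1.00 and 1.05 with DMSO, 0.979 and 0.970 with dTAG) and tested with edgeR 4.0.16 (quasi-likelihood F test, two-sided, R 4.3.3), with Benjamini-Hochberg adjustment over all of them. Standard errors are the log2 fold change over the square root of F, and intervals use the t quantile at 95%. Scripts were tested on simulated data. The study names spike-in normalization without its function or number of factors, so spike-in settings were alternatives. Other alternatives were DESeq2 1.42.0, upper-quartile normalization, the likelihood ratio test, other count minimums, a replicate block, removal of GC and length trends by lowess (span 0.3), and leaving out each library.

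Named were all members, list genes that passed the test (up to 6 per list and direction, by fold), the nearest counted gene on each side of DHRS2, the 5 genes most like it, and TRIM28. Of the counted genes, 19802 had a symbol. Members and lists were chosen with earlier results of these data known.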

Additional observations from a re-analysis of the deposited data

How the results depend on the processing

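Nothing states that equal replicate numbers pair the libraries. The replicate deviations with DMSO and with dTAG had a correlation of -0.24 across tested genes, which cannot decide this, since all genes share the same libraries. A replicate block reduced calls over all genes from 895 to 340, with 1.28% of all tested genes higher and 1.41% lower. It left 2 other SDR genes higher and 1 lower, 1 retinoid gene lower and 0 neighbors lower. The block with crossed numbers, chosen after seeing the data, gave 3190 calls, with 12.7% of all tested genes lower and 12.6% higher. Among the lists, 1 relative, 8 other SDR, 5 retinoid, 1 aldo-keto reductase and 5 neighbor genes were lower and 1 retinoid gene higher. Among relatives, 1 was called lower with DESeq2, upper-quartile normalization, the likelihood ratio test or no count minimum (DHRS13) and 1 with the trends removed (DHRS7). Upper-quartile normalization gave 3 other SDR genes higher and 2 neighbors lower, where 2.02% of all tested genes were higher and 6.89% lower. The likelihood ratio test gave 4 other SDR and 3 neighbor genes lower and 1 retinoid gene higher. With this test 6.85% of all tested genes were lower and 5.78% higher. No count minimum gave 2 neighbors lower and 1 retinoid gene higher, where 4.26% of all genes were lower and 3.86% higher. With the ERCC factor, 3 other SDR and 2 retinoid genes were higher and 4 other SDR, 1 retinoid and 2 neighbor genes lower. In that fit 6.32% of all tested genes were called higher and 4.16% lower. With the ERCC totals every list had 0 calls. With the GC and length trends removed, 10 other SDR, 3 retinoid and 3 neighbor genes were higher, where 18.8% of all tested genes were. Lower were 4 other SDR, 0 retinoid and 1 aldo-keto reductase genes, where 3.81% of all tested genes were. The cause of these differences was not tested.

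Leaving out 1 library changed calls over all genes to between 68 and 5489. It gave 0 to 5 relatives lower, 0 to 8 other SDR genes higher and 0 to 9 lower, 0 to 1 retinoid genes higher and 0 to 7 lower, 0 to 4 aldo-keto reductases lower, and 0 to 1 neighbors higher and 0 to 19 lower. The DHRS2 value ranged from -1.76 to -1.37 without 1 library and was -0.89 with the ERCC totals and -1.24 with the ERCC factor.

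Signs turned with the ERCC totals in DHRS4 (0.56), DHRS4L2 (0.43), DHRS1 (0.40), DHRS3 (0.60), DHRS7 (0.44), DHRS11 (0.48) and DHRS13 (0.19), with the ERCC factor in DHRS4 (0.096), DHRS3 (0.14) and DHRS11 (0.26), and with trends removed in DHRS3 (0.094) and DHRS11 (0.085). Leaving out 1 library gave ranges of -0.24 to 0.022 for DHRS4, -0.20 to 0.060 for DHRS3 and -0.41 to 0.045 for DHRS11. Low counts limit DHRS9, and 2 libraries per group limit the rest.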

Other observations

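The 218 tested genes with TATAAA between 20 and 40 bases before a RefSeq start, DHRS2 left out, had a median log2 fold change of -0.090. Of these, 10 were called higher and 44 lower by edgeR, or 20.2% lower, against 3.66% of all tested genes. Replication-dependent and other histone genes made up 24 of the 218, and among the 194 others 22 were called lower, 11.3%. The 200 tested genes whose windows held at most 2 CG dinucleotides each had a median of -0.057, with 7 called higher and 7 lower, or 3.5% lower. The 11 genes with both features, as in DHRS2, had a median of -0.11, with 2 called higher and 1 lower. This grouping was chosen after the DHRS2 window had been seen, and it was not tested further.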
